A study of Mus musculus with 3 samples.

Results

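The 9 genes of the core circadian clock were described in mouse neural retina of postnatal day 7 (P7), collected between 1 and 2 pm. Their members were all probe sets with a single gene symbol among Arntl (also called Bmal1), Clock, Npas2, Per1, Per2, Per3, Cry1, Cry2 and Dbp. There were 11 such probe sets, out of 12422 that were not controls, and the 9 genes were among 8251 with a named probe set. Gene expression was measured in 3 samples on Affymetrix MG-U74Av2 arrays, on which short probes for a transcript are grouped into probe sets. Each sample was total RNA from the pooled neural retinas of 3 to 4 mice of a mixed 129/SvEv and C57BL/6 background. The mice were wild type and littermates of Rp1-/- animals, which are not part of these data. The samples are called pools 1, 2 and 3, the numbers being names only. The labels gave 1 group, 1 age and 1 hour of collection, so no times of day were compared and nothing here measures a rhythm. The light schedule of the animals is not given in the sources used here, so the clock hour was not converted into a circadian phase.

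The circadian clock is a loop of transcription. The proteins of Arntl and Clock, or of Npas2 in place of Clock, bind E-box elements as a pair and activate the Per and Cry genes, whose proteins then accumulate and repress that pair. Dbp is a direct output of the same activators and acts on D-box elements, while the nuclear receptors of the REV-ERB and ROR families act back on Arntl. The retina of mammals has a clock of its own, which is known for timing dopamine and melatonin signalling.

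The elements that tie these genes to each other could be looked for in the promoters, taken from RefSeq on build GRCm38.p6 as windows from 250 bases before to 50 bases after each start site. Windows were matched for 8 of the 9 genes, 12 windows in all. Per2 had none and was not searched. Sequence outside these windows was not searched either, so a motif not found here may lie elsewhere at the gene. The E-box CACGTG, which reads the same on both strands, was found in 2 of the 12, those of Per1 and Cry1, against 7.15% of 32851 windows of the same length. The D-box, searched as TTATGTAA or TTACGTAA on both strands, was found in 1 window, that of Per3, against 1.06% of all windows. The cAMP response element TGACGTCA was in 0 of the 12 windows and in 1.79% of all. The ROR core site AGGTCA, searched on both strands, was in 3 windows, those of Arntl, Clock and Per1, against 16.3% of all, a motif too common to single out a gene. The 3 windows with an E-box or a D-box, those of Per1, Per3 and Cry1, are shown because they hold such an element. The element is in capitals, and the strand of the gene is written 5′ to 3′. The Per1 window is chr11:69098699-69098998 on the plus strand, with the E-box beginning 166 bases before the start site. The Per3 window is chr4:151044616-151044915 on the minus strand, with D-boxes beginning 205 and 158 bases before the start site. The Cry1 window is chr10:85185005-85185304 on the minus strand, with the E-box beginning 60 bases before the start site.
Per1: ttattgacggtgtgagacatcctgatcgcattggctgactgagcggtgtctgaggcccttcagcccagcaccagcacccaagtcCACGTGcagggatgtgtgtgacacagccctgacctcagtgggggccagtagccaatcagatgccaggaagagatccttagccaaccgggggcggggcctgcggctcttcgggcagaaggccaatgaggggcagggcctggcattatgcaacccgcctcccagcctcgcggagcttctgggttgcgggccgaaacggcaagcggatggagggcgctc
Per3: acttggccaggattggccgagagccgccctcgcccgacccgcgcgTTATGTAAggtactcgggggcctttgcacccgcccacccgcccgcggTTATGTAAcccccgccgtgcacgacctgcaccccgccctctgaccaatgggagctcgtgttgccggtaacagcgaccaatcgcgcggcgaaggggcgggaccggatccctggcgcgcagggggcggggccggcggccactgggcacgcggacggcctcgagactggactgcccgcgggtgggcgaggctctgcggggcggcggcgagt
Cry1: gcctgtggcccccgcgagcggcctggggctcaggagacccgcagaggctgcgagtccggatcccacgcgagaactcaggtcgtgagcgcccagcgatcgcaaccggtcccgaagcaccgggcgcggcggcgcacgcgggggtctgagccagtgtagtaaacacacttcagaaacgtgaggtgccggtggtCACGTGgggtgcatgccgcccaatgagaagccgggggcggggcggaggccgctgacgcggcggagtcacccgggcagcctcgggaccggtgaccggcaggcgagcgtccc
A match is a description of these letters and not a measured binding site.

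Of the 9 clock genes, Arntl, Cry1 and Cry2 had signal above background in all 3 pools. This was 3 of 9, or 33.3%, while 45% of all genes passed the same rule, so the share of clock genes was no higher than that of genes in general. Clock and Per3 were above background in 2 pools and Per1 in 1, whereas Npas2, Per2 and Dbp were below it in every pool. The 6 of 9 above it in at least 1 pool compare with 56.8% of all genes. Intensities are the authors' values, scaled between arrays, in arbitrary units. The background bar of an array was the 90th percentile of 68 measured genes typical of other organs, among them liver, pancreas, pituitary and testis, and stood at 259, 328 and 293 in pools 1, 2 and 3. Of all genes, 53.9%, 48.2% and 50.2% lay above the bar in pools 1, 2 and 3. A gene below its bar may still be expressed. Intensities of different probe sets are not on a common scale, because probes differ in how strongly they bind, so no order between genes was read from them. In pooled tissue, fewer cells that express a gene and less RNA per cell cannot be told apart. Pool 1 stood apart from the other pools in lens genes, the summed intensity of 8 lens markers being 26729, 126770 and 136209 in pools 1, 2 and 3. In the main setting all 8 had a spread beyond that of probe sets of their brightness, where 1.34% of all tested probe sets did. This count depends on the setting. Only 6 probe sets of any kind were called with the intensities unscaled or quantile normalised, and 0 with dim probe sets kept.

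**Figure D1:**
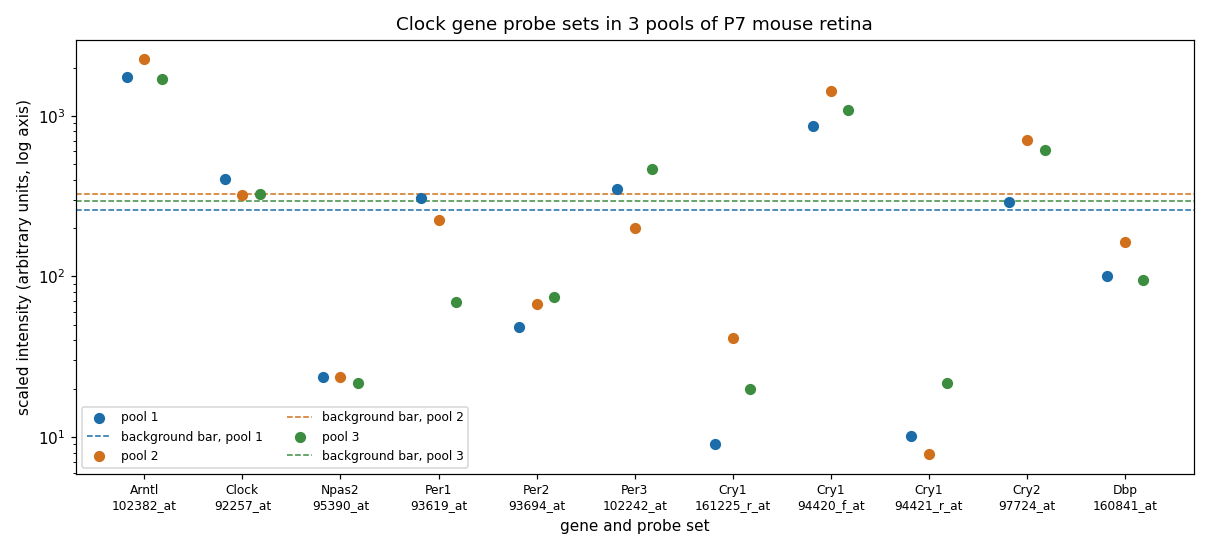
Scaled intensity (arbitrary units, log axis) of the 11 clock gene probe sets in each of 3 pools of P7 retina, 1 point per pool, with the background bar of each pool as a dashed line. The points of Arntl, Cry2 and the Cry1 probe set 94420_f_at lie above their bars in all 3 pools, while those of Npas2, Per2, Dbp and the other Cry1 probe sets lie below in all 3.

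Among the activators, Arntl was well clear of background. Arntl, which encodes the shared partner in the pairs with Clock or Npas2 described above, had intensities of 1747, 2247 and 1692 in pools 1, 2 and 3 (probe set 102382_at). All 3 pools were at least 5.77 times their background bar, and pool 2 was the highest. The mean was 1895 ± 306 (SD, n = 3 pools), and the highest pool was 1.33-fold above the lowest, close to the median of 1.40-fold over the 6211 brighter probe sets of the array. On the values as deposited, before the scaling between arrays, the Arntl range was 1.17-fold.

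Clock, which encodes the usual partner of the Arntl protein, had intensities of 404, 321 and 324 (probe set 92257_at). Pool 1 was the highest, and pool 2 fell just short of its bar of 328. The mean was 350 ± 47.2 (SD, n = 3), and pool 1 was 1.23-fold above pool 2, counting pool 2 at its bar. Such a ratio allows for background but not for variation between single arrays, and the spread of Clock did not pass the test given below. Npas2, the paralog that can stand in for Clock, had intensities of 23.6, 23.6 and 21.6 (probe set 95390_at). All 3 lay under the floor of 42.2 that was set for dim values, so they have no order. The single probe set of Npas2 cannot tell a low level of the transcript from probes that bind poorly.

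Among the repressors, Cry1 by 1 of its 3 probe sets and Cry2 were above background in all pools. Per3 was so in 2 pools, Per1 in 1 and Per2 in none. Probe sets are not on a common scale, so the cryptochrome and period genes were not compared as families. Cry1, which encodes a strong repressor of the activating pair, had intensities of 859, 1432 and 1092 by probe set 94420_f_at. Pool 1 was the lowest and pool 2 the highest, 1.67-fold apart, and the mean was 1128 ± 288 (SD, n = 3). The letter f marks a probe set that can be shared between members of a sequence family, so this signal may not be from Cry1 alone. The other Cry1 probe sets were of type r, made under relaxed selection rules, and did not show this signal. One, 94421_r_at, made from the same GenBank entry as the f set, was at 10.2, 7.84 and 21.8, and 161225_r_at was at 9.04, 41.4 and 19.9. Both lay under the floor in every pool, so the signal assigned to Cry1 rested on 1 of its 3 probe sets.

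Cry2, which encodes the second cryptochrome, had intensities of 290, 710 and 613 (probe set 97724_at). Pool 1 was the low one, at 1.12 times its bar, whereas pools 2 and 3 were 2.16 and 2.09 times theirs. The mean was 537 ± 220 (SD, n = 3). Pool 2 was 2.45-fold and pool 3 2.11-fold above pool 1, while pools 2 and 3 were 1.16-fold apart.

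Per1, a period gene that is also induced by light and cAMP, had intensities of 308, 226 and 69.0 (probe set 93619_at). Pool 1 alone was above its bar, at 1.19 times it. The mean was 201 ± 122 (SD, n = 3). The range of 4.47-fold is between a value near background and one below it. With pool 3 counted at its bar of 293 pool 1 was 1.05-fold higher, and with pool 2 counted at its bar pool 1 was 0.94 times it. No difference between pools was read from these ratios. Per1 lay under the brightness limit of 217 that was set for tests, with a geometric mean of 169. Among the 6211 probe sets under that limit, 33.0% had a range above 2-fold and the 95th percentile of the range was 4.04-fold. Among the 2595 of them above the floor in all pools, as Per1 was, these values were 38.3% and 4.00-fold.

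Per2, a period gene whose loss disrupts rhythms of locomotor activity, had intensities of 48.1, 67.3 and 74.7 (probe set 93694_at). All were at most 0.255 times their bar, so no fold is given. Per3, the period paralog that is dispensable for the core loop, had intensities of 349, 199 and 466 (probe set 102242_at). Pool 2 was the low one and lay below its bar, while pools 1 and 3 were 1.35 and 1.59 times theirs. The mean was 338 ± 134 (SD, n = 3), and pool 3 was 1.42-fold above pool 2 with pool 2 at its bar. The spread of Per3 did not pass the test given below.

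Dbp, the output gene that encodes a D-box activator, had intensities of 101, 164 and 94.5 (probe set 160841_at). All 3 pools lay between 0.322 and 0.501 times their bars, so they were not ranked. The mean was 120 ± 38.6 (SD, n = 3).

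None of the clock genes bright enough to be tested varied between the pools by more, on a test, than probe sets usually do at their brightness. The test set the variance of each probe set over the 3 arrays against the variance that limma estimated for its brightness, over the 6211 brighter probe sets. The probe sets of Arntl, Clock, Per3 and Cry2 and the f set of Cry1, 5 of the 11, were bright enough to be tested. At a limma adjusted p below 0.05, 0 of these 5 had excess spread, where 1.34% of all tested probe sets did. At an unadjusted p below 0.05 there was 1 of 5, Cry2, where 6.76% of all did. For Cry2 the log2 SD was 0.69, 2.19 times the 0.32 typical of its brightness (limma adjusted p = 0.322). For Per3 it was 0.62 against 0.36 (limma adjusted p = 0.737). Cry1, Arntl and Clock each had a limma adjusted p of 0.992. Per3 and Cry2 had a range above 2-fold, 2 of 5, where 8.63% of all tested probe sets did, and the Per3 range included a pool below background. The test could call a change in 1 pool only if it was large: the other 2 pools being equal, it had to reach 2.53-fold for Arntl, the lowest of the 5 limits, and 3.27-fold for Per3, the highest. A 2-fold change of 1 pool would therefore seldom be called in any of the 5 with 3 arrays.

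**Figure D2:**
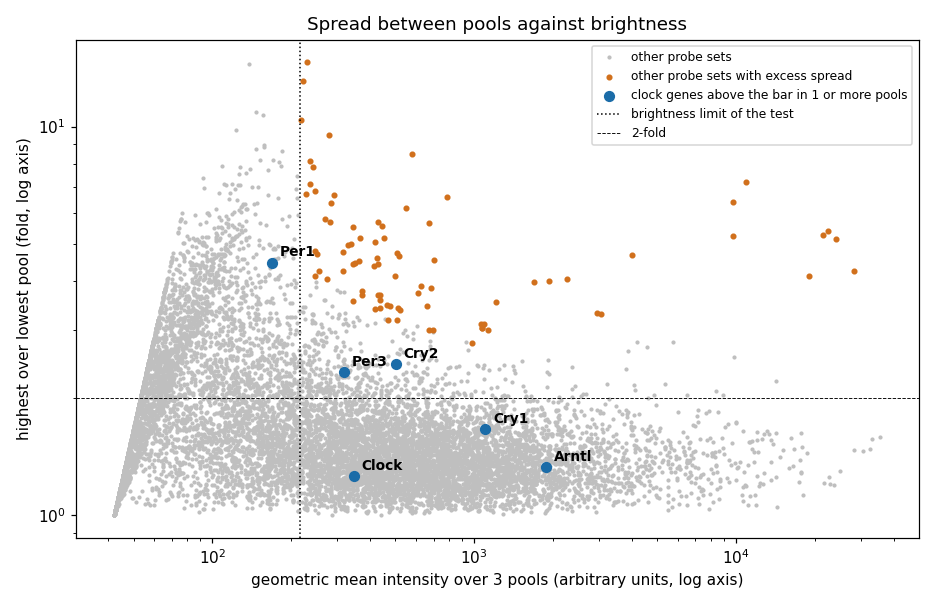
Highest over lowest pool (fold, log axis) against the geometric mean intensity over 3 pools (arbitrary units, log axis) for all non-control probe sets, with dim values put at the floor of 42.2. Per3 and Cry2 lie above the 2-fold line but below the probe sets with excess spread (orange), and Per1 lies to the left of the brightness limit of 217, where no test was made.

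The clock genes did not share 1 order of the pools. Pool 2 was highest for Arntl, Cry1 and Cry2, 3 of the 5 tested probe sets, but pool 2 was also the highest in 50% of all tested probe sets. On the log2 scale, Arntl, the single activator above background in all pools, deviated from its own mean by -0.11, 0.26 and -0.15 in pools 1, 2 and 3. The median of Cry1 and Cry2, the repressors above background in all pools, was -0.58, 0.44 and 0.14. The median over the 3713 genes above background in all pools was -0.05, 0.14 and -0.09. Among the repressors, pool 1 was lowest for Cry1 and Cry2 and pool 2 for Per3. Per1 was below background in pools 2 and 3, so its pools were not ranked. Among those 3713 genes, pool 1 was the lowest for 38.7%, pool 2 for 14.1% and pool 3 for 47.2%. The differences behind the orders of Cry1, Cry2 and Per3 did not pass the test.

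**Figure D3:**
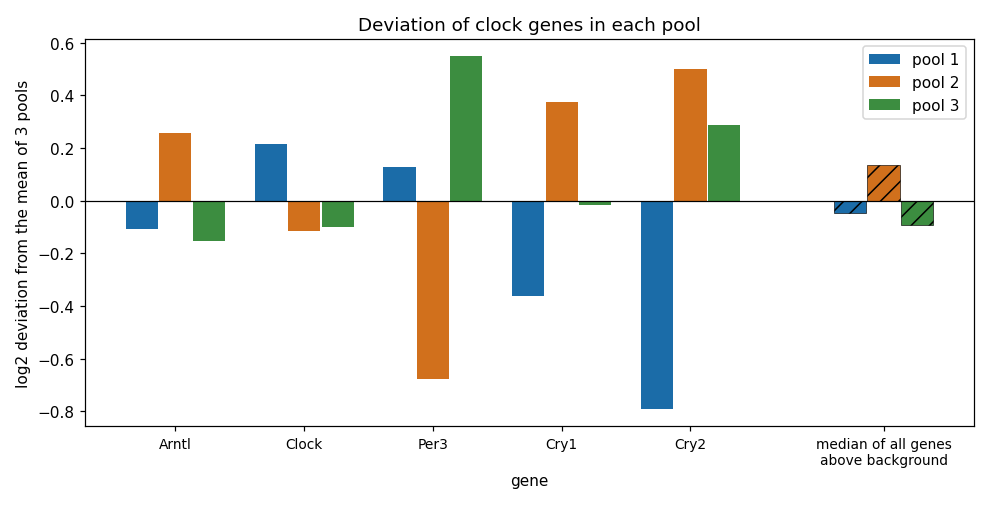
Log2 deviation of each pool from the gene's mean over 3 pools, for the 5 clock genes above background in at least 2 pools, beside the median of all 3713 genes above background in all pools (hatched). Cry1 and Cry2 are lowest in pool 1 and Per3 in pool 2, where Per3 lay below background, as Clock did.

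Other measures differed between the pools as well. Pool 1, the low pool for Cry1 and Cry2, was also the one low in lens genes. The 3' to 5' ratio of the Actb control probe sets, a measure of RNA length and labelling, was 1.81, 1.27 and 1.30 in pools 1, 2 and 3, and that of Gapdh was 0.874, 0.788 and 0.812. The blood markers, of which Hba-a1 alone of 3 was above background, summed to 3042, 6885 and 2912, highest in pool 2 like Arntl, Cry1 and Cry2. The part of these differences in the clock values was not tested. Without pool 1 the Cry2 range was 1.16-fold and the Cry1 range 1.31-fold. Without pool 2 they were 2.11-fold and 1.27-fold. A range narrows by construction when its lowest or highest pool is left out, so these values do not point to a source. Of the retina markers, 9 of 9 measured were above background in every pool, such as the rod arrestin gene Sag at 12305, 15211 and 13639. Of 6 pigment epithelium markers 1 was above background in all pools, of 5 vascular markers 1 and of 6 microglia markers 4, and none of these had excess spread.

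The second loop and the factors around the core were read from 7 further lists, in which 30 of 45 genes were measured. By 1 probe set per gene, 12 of the 30 were above background in all pools, against 45% of all genes. That 45% is also the share to set beside the count of each list below. The lists are short, so their counts are not read as contrasts between parts of the pathway. Of the 30, 16 were tested and 0 had excess spread, where 1.34% of all tested probe sets did. The lowest limma adjusted p was 0.983. At an unadjusted limma p below 0.05 there were 0 of 16, where 6.76% of all were. Ranges of the 16 lay between 1.09-fold and 1.68-fold, with a median of 1.34-fold. None of the 16 passed 2-fold, where 8.63% of all tested probe sets did. With so few probe sets, 0 is near each of these shares. Genes too dim to be tested are not covered by these counts.

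In the loop of nuclear receptors 1 of 3 measured genes was above background in all pools by its chosen probe set. Rora, an activator gene of this loop named after its values were seen, was not by that probe set but was by another, at 826, 839 and 617. Nr1d2, which encodes the repressor REV-ERB beta, was at 887, 937 and 810, a spread of 1.16-fold. Nr1d1, which encodes REV-ERB alpha and is named here after its values were seen, was at 278, 280 and 366. Pool 2 fell below its bar of 328, the highest of the bars, although its value was no lower than that of pool 1. Among D-box factors 1 of 2 measured was above background: Tef, a relative of Dbp and an activator, was at 1101, 1258 and 1163, whereas Nfil3, which encodes the repressor of the same element, was below background in every pool at 226, 160 and 122. Of the repressors and partners 1 of 3 measured was above background, Timeless at 458, 402 and 420. Bhlhe40, an E-box repressor gene, was below background throughout. Nfil3 and Bhlhe40 too are named after their values were seen.

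The kinases and ubiquitin ligase genes that set the stability of clock proteins were above background in all pools for 5 of 5 measured, where 45% of all genes were. Csnk1d and Csnk1e encode the casein kinases that phosphorylate the period proteins. Csnk1d was at 2094, 2785 and 2535, and Csnk1e at 955, 1581 and 1052, both lowest in pool 1 and highest in pool 2. Gsk3a, a glycogen synthase kinase gene, was at 7114, 7854 and 5502. Btrc, the F-box gene of a ligase that marks phosphorylated period proteins for degradation, was at 664, 844 and 851. These kinases and ligases act in many pathways, so their signal is not particular to the clock.

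Of 3 clock-controlled genes measured 1 was above background in all pools, the ubiquitin protease gene Usp2 at 296, 479 and 334. Nampt, the enzyme gene of NAD synthesis, was at 492, 465 and 292, just under its bar of 293 in pool 3. Among genes of the cAMP and light response, which also reach Per1, 2 of 5 measured were above background. These were the coactivator gene Crebbp at 849, 1025 and 864 and the immediate early gene Egr1 at 494, 330 and 317. Egr1 passed narrowly in pools 2 and 3, at 1.01 and 1.08 times their bars. Egr1 was highest in pool 1, with a spread of 1.56-fold that did not pass the test (limma adjusted p = 0.992).

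Of the retinal melatonin, dopamine and photoentrainment genes 1 of 9 measured was above background in all pools by its chosen probe set, where 45% of all genes were. Aanat, which encodes the enzyme that limits melatonin synthesis and is named after its values were seen, was not by that probe set but was by another, at 355, 438 and 519. Vipr2, the receptor gene for the peptide VIP, was at 534, 858 and 696. Drd4, the dopamine receptor gene of photoreceptors, was at 255, 404 and 346, with pool 1 just under its bar of 259. Th, which encodes the rate-limiting enzyme of dopamine synthesis, was at 289, 165 and 55.5, above its bar in pool 1 alone. Drd4, Th and Nampt are named here after their values were seen.

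**Figure D4:**
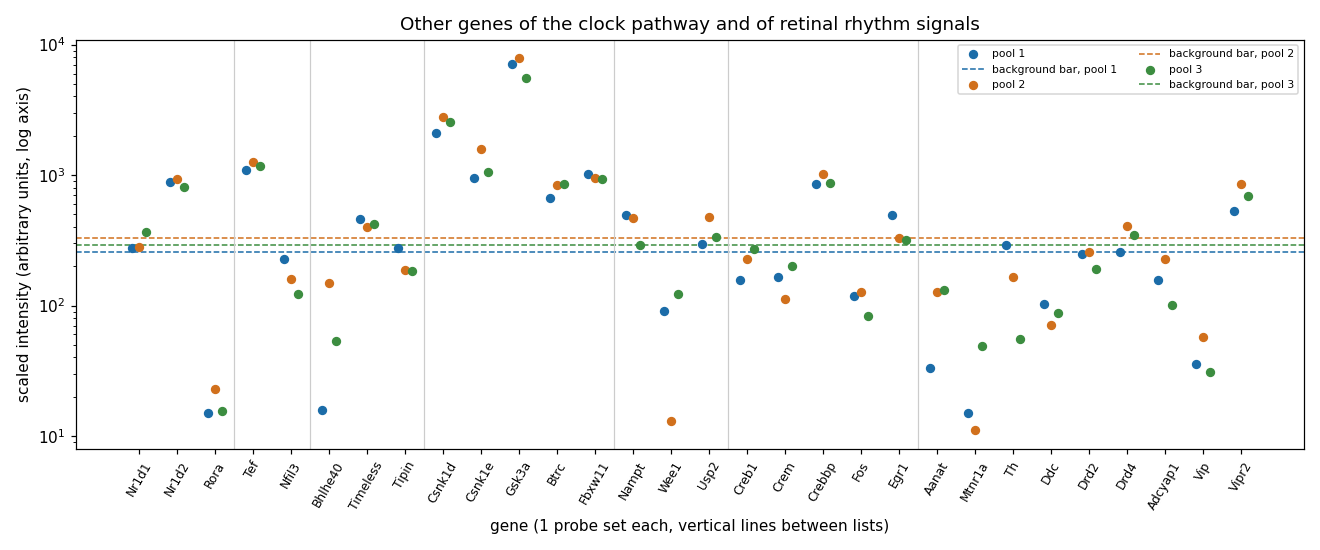
Scaled intensity (arbitrary units, log axis) of the 30 measured genes of the 7 wider clock lists in each of 3 pools, 1 chosen probe set per gene, with the background bar of each pool as a dashed line. The 5 kinase and ubiquitin ligase genes lie above all bars, while most genes of retinal melatonin and dopamine signalling lie at or below them.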

How the data were processed

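The data were 3 arrays of 1 group. The deposited intensity values of the authors are on a linear scale and had been scaled per array, to a mean near 500 without the lowest and highest 2% (500.2, 500.3 and 500.2). Which software made them is not given in the sources used here, nor is a background correction. No separate depth applies to arrays, and the number of arrays limits the precision. Nothing says more of the replicates than that each pooled several mice, so p-values speak only of variation among these 3 samples, which may in part be technical.

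Symbols came from the platform annotation, updated by gene ID through RefSeq. Of 12422 probe sets without the 66 controls, 10833 had 1 gene, 396 several and 1193 none named. Arrays were scaled to a common median (log2 shifts of -0.06, 0.12 and -0.06), floored at the 20th percentile, 42.2, and put on the log2 scale. In lists, a gene was represented by a probe set without a letter suffix, then by the highest mean. Excess spread was tested with limma 3.58.1 in R 4.3.3 (squeezeVar, robust, mean level as covariate) on the brighter 50% of probe sets, as an upper-tail test at the highest prior degrees of freedom, with Benjamini-Hochberg adjustment over all 6211. Tested on data simulated for these 6211 probe sets, with normal noise, it recovered 8.8% of the changes in 1 pool that were 2-fold, 90.4% of those that were 4-fold and 100.0% of those that were 8-fold, and 0.789% of calls were false. The real share of false calls was not measured.

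Named were all members, the first 4 genes of each list above background in all pools and any with excess spread, and a few others said to be chosen later. Genes with a similar pattern were to be named only for a member with excess spread, so none were. Members and lists were chosen with earlier results of these data known. Protein sequences were not used here.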

Additional observations from a re-analysis of the deposited data

How the results depend on the processing

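No clock probe set had excess spread under any of the 11 alternatives run (other scaling, floor, pseudocount, brightness filter, prior, or 1 pool left out), and the count at an unadjusted limma p below 0.05 was 0 to 2. For Cry2 the limma adjusted p lay between 0.301 and 0.986 and for Per3 between 0.372 and 0.996. With dim probe sets kept in the test, the Per1 limma adjusted p was 0.372. Over all probe sets 83 had excess spread, but 6 did with the intensities unscaled, 6 with quantile normalisation, 0 with dim probe sets kept (prior degrees of freedom 0.851 against 279), 27 in the brightest 25%, 38 without the robust option and 9 to 30 with 1 pool left out, so these settings called fewer genes of any kind.

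The number of clock genes above background in all pools, 3, was 5 with the bar at the 75th percentile, where Clock and Per3 passed too, and 3 to 5 with 1 pool left out, being 5 without pool 2. It was 2 with the bar at the 95th percentile and 2 with the brightest probe set per gene, both without Cry2. The 2 probe sets with a range above 2-fold became 1 to 1 with 1 pool left out: Per3 without pool 1, and Cry2 without pool 2 or pool 3. It was 3 with dim probe sets kept, Per1 being added. The median deviation of the repressor and output genes above background stayed between -0.58 and -0.21 in pool 1 and between 0.15 and 0.51 in pool 2, but changed sign in pool 3, from -0.15 to 0.22. These genes were Cry1 and Cry2, but Cry1 alone with the brightest probe set per gene, and Per3 was added without pool 2, which gave the -0.21. The activator median, that of Arntl alone, was 0.09 in pool 2 after quantile normalisation, where the Arntl range was 1.11-fold. Without pool 2 it was over Arntl and Clock, and was 0.09 in pool 1. All these alternatives were planned. No paired analysis was possible because all samples form 1 group.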

Other observations

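Probe sets of 1 gene disagreed elsewhere in the clock pathway too. Of the 30 wider clock genes measured, 11 had more than 1 probe set, and for 5 of them (Aanat, Csnk1d, Egr1, Rora and Usp2) some passed the background rule in all pools and others did not. The share that disagreed among all 2073 genes with more than 1 probe set was not computed. The 5 of 11 is therefore not a trait of the clock pathway. Rora was at 15.1, 23.0 and 15.4 by 101888_at, under the floor, but at 826, 839 and 617 by 101889_s_at. Aanat was at 33.1, 126 and 132 by 92511_at and at 355, 438 and 519 by 92512_g_at, above background in all pools. Over all 44 probe sets of the 30 wider clock genes, 18 were above background in all pools and 24 were tested. The share of all probe sets above background was not computed, but 45% of all genes were, by 1 probe set each. Of the 24, 0 had excess spread, against 1.34% of all tested, and 1 had an unadjusted limma p below 0.05, against 6.76%. A range above 2-fold was seen for 2 of the 24, against 8.63% of all tested. One of them, Csnk1d by 97264_r_at, was at 409, 914 and 438 (limma adjusted p = 0.436), while the chosen Csnk1d probe set had a range of 1.33-fold with pool 2 highest as well. The genes of this paragraph were chosen after their values were seen.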
